A study of Mus musculus with 18 samples.

Results

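The Akr1b and Akr1c genes encode aldo-keto reductases, and 10 of them were examined here among the 54838 genes of an RNA-seq table of mouse liver. They were taken by symbol: Akr1b3, Akr1b7 and Akr1b8, and Akr1c6, Akr1c12, Akr1c13, Akr1c14, Akr1c18, Akr1c19 and Akr1c20. Each symbol was listed once. The 18 samples formed 6 groups of 3: normal livers of untreated mice, and non-tumour livers and liver tumours of mice given diethylnitrosamine (DEN, a liver carcinogen), each from wild type (WT) mice and from mice lacking the miR-181ab1 cluster in all tissues (GKO, global knockout). All mice were C57BL/6 and 36 weeks old at collection according to the labels. DEN was given once, at 25 mg/kg on postnatal day 12. The study describes its DEN-treated mice as males and its WT controls as littermates that carried a floxed allele without Cre, or Cre alone, so WT does not denote one uniform genotype. The GKO removes the cluster from every cell type, not from hepatocytes alone. A legend of the study counts as many mice as there are samples per group for mRNA of DEN-treated tissues, while nothing in the labels says that the normal livers of a group came from separate mice or ties a tumour to the non-tumour liver of one mouse. P-values measure the spread between these samples.

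Aldo-keto reductases are NADPH-dependent enzymes that reduce aldehydes and ketones to alcohols. The Akr1b enzymes are relatives of aldose reductase, which opens the polyol pathway by converting glucose to sorbitol, and they also reduce reactive aldehydes. The Akr1c enzymes are hydroxysteroid dehydrogenases and related enzymes, which convert steroid hormones between more and less active forms, and liver is rich in several of them. In rodents both families have multiplied by gene duplication, and some members are known to be induced in liver tumours or by the oxidative stress factor NRF2.

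Expression was given in TPM, a level per unit of gene length that sums to 1000000 in each sample, so that levels of different genes can be set side by side. The samples held 11925055 to 20751348 reads on genes, a value recovered from the TPM, and 3 reads were taken as the floor below which a gene was not counted as detected. Reads had no molecular identifiers, so this floor covers counting error only. The deleted Mir181a-1 and Mir181b-1 had 0 reads in all 18 samples apart from 1 read of Mir181a-1 in GKO tumour 3, so these libraries of long RNA do not check the genotype. Hepatocyte markers were abundant in all samples, with a summed level of 62664 to 95396 TPM in livers and 170201 to 207196 TPM in tumours. Against non-tumour livers, Alb and Apoa1 were higher in tumours, by log2 fold changes of 1.40 and 1.31 in WT and 2.00 and 1.38 in GKO mice. The other markers of this list differed by only -0.61 to 0.61, so the higher sum does not stand for all of them. Cholangiocyte markers summed to 38.1, 551 and 963 TPM as the lowest, median and highest GKO tumour and to at most 93.9 TPM in any other sample. Against WT tumours, Spp1 of this list differed by a log2 fold change of 3.33 in GKO tumours. The other markers tested differed by -1.01 to 1.55 and none was called, so this sum too does not stand for all of them. WT tumours 1 and 2 resembled each other closely, and WT non-tumour 2 had unusual values for several members, which are given beside each result. Bulk tissue was sequenced, so fewer cells of a type and less RNA per cell cannot be told apart.

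The deleted cluster makes 2 mature microRNAs whose seeds, bases 2 to 8, are the same. They are shown because a direct target would carry the complement of this seed in its 3′ UTR. The seed is in capitals, and both sequences are from RefSeq on GRCm38.p6, at chr1:137966468-137966490 and chr1:137966650-137966673 on the plus strand.
miR-181a-5p: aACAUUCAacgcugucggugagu
miR-181b-5p: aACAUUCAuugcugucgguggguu
The matching 7 letters TGAATGT were present in the 3′ UTR of 1 of the 10 members, Akr1c14. The match lay 278 bases into a 3′ UTR of 1698 bases, at chr13:4089268-4089274 on the plus strand of mm10 (GENCODE release 21), and is shown in capitals with its flanks.
Akr1c14: atatctcaTGAATGTctgtgtct
Across 20646 genes with an annotated 3′ UTR, 3095 held the same 7 letters. A match of letters is a description and not a measured site.

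The 7 Akr1c genes lay within 474 kb of chromosome 13 (chr13:4049011-4523345, mm10) and the 3 Akr1b genes within 121 kb of chromosome 6 (chr6:34302434-34423142). All 10 were annotated as protein-coding. The coding sequences of the 2 families were at most 73.96% identical over the aligned bases, against 75.9% to 96.2% within Akr1c and 77.0% to 86.1% within Akr1b. The closest pair was Akr1c12 and Akr1c13, with 935 of 972 coding bases identical. The next was Akr1c6 and Akr1c20, with 92.3%. Of all 50-base stretches in the annotated transcripts of Akr1c12, 28.6% also occurred in Akr1c13, and 24.2% of those of Akr1c13 occurred in Akr1c12. Reads from these stretches fit both genes, and the share given to each gene is uncertain. Among the other members, the share of stretches that also occurred in another gene was 15.8% for Akr1b7 and 13.6% for Akr1b3. For Akr1b3 most of these were shared with Gm38056 (12.8%). For Akr1c6 the share was 1.38% and for Akr1c18 it was 0.581%, the lowest. Akr1b7 overlapped the opposite-strand gene Gm13857 over 348 of its 1281 exonic bases, and Gm13857 stood at 0 to 2 reads in each sample. On the same strand, Akr1c14 overlapped Gm18857 over 234 of 3239 exonic bases and Akr1c19 overlapped Marcksl1-ps4 over 291 of 5892.

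Promoters were available from RefSeq for 8 of the 10 genes, Akr1b3 and Akr1c20 excepted. Those of Akr1c12 and Akr1c13 were identical at 284 of 300 bases, whereas the other 27 pairs were identical at 55.0% to 65.0%. A stretch of this pair is printed because no other members had starts so alike. The stretches are from chr13:4279400-4279429 on the minus strand and chr13:4191154-4191183 on the plus strand (GRCm38.p6), and capitals mark the 2 bases at which they differ.
Akr1c12: TacAatgtttacccacttccgcttcagggc
Akr1c13: GacGatgtttacccacttccgcttcagggc
On either strand of these promoters, 250 bases before to 50 after the start, the antioxidant response element core TGACNNNGC was found in Akr1c19 alone. It occupied bases 7 to 15 after the start and read on the opposite strand, within chr13:4233741-4233761.
Akr1c19: gaacttGCTTAGTCAgaagag
Of 32851 RefSeq promoters, 12.4% held these letters. The AP-1 letters TGANTCA were in 7.81% of promoters and in none of the 8.

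In the livers the Akr1c family was set by Akr1c6 (17-beta-hydroxysteroid dehydrogenase type 5, which interconverts androstenedione and testosterone). It was the most abundant Akr1c gene in all 12 livers, with 49.3% to 68.9% of the summed Akr1c TPM. Akr1c18 (20-alpha-hydroxysteroid dehydrogenase, which inactivates progesterone) contributed at most 0.600% of that sum in any liver. In tumours it contributed 47.6%, 52.6% and 24.3% in WT tumours 1 to 3 and 10.4%, 54.6% and 2.52% in GKO tumours 1 to 3, and it was the most abundant Akr1c gene in 3 of the 6 tumours. The summed Akr1c TPM itself was 738 ± 143 in WT normal livers, 1561 ± 608 in WT non-tumour livers and 1027 ± 23.6 in WT tumours (SD, n = 3 each). In GKO mice it was 730 ± 191 in normal livers, 805 ± 417 in non-tumour livers and 761 ± 227 in tumours (SD, n = 3 each). In both genotypes the tumours had a lower mean sum than the non-tumour livers, and the ranges overlapped in GKO mice and not in WT mice, where the lowest liver had 1067 TPM and the highest tumour 1051 TPM.

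**Figure D1:**
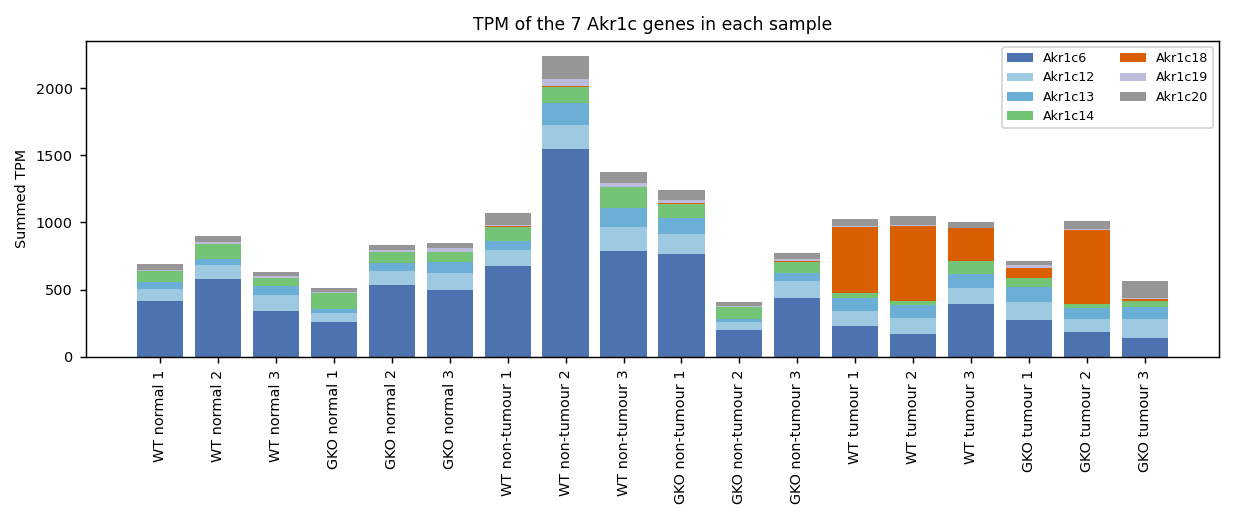
Stacked bars give the TPM of each of the 7 Akr1c genes in every sample, with colours for genes and 3 samples per group. Akr1c6 (darkest blue) is the largest block in the 12 livers, and Akr1c18 (orange) is seen in tumours, most in WT tumours 1 and 2 and GKO tumour 2.

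Along the chromosome 13 cluster, Akr1c18 lay between Akr1c14 and Akr1c13, and both neighbours were abundant in livers as well. Mean TPM in WT tumours and WT non-tumour livers was 428 and 1.54 for Akr1c18, 56.8 and 127.5 for Akr1c14, and 99.1 and 124.4 for Akr1c13. The WT groups overlapped for Akr1c13. In GKO tumours and GKO non-tumour livers the means were 213 and 1.83 for Akr1c18, 47.6 and 92.1 for Akr1c14, and 97.1 and 69.0 for Akr1c13.

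**Figure D2:**
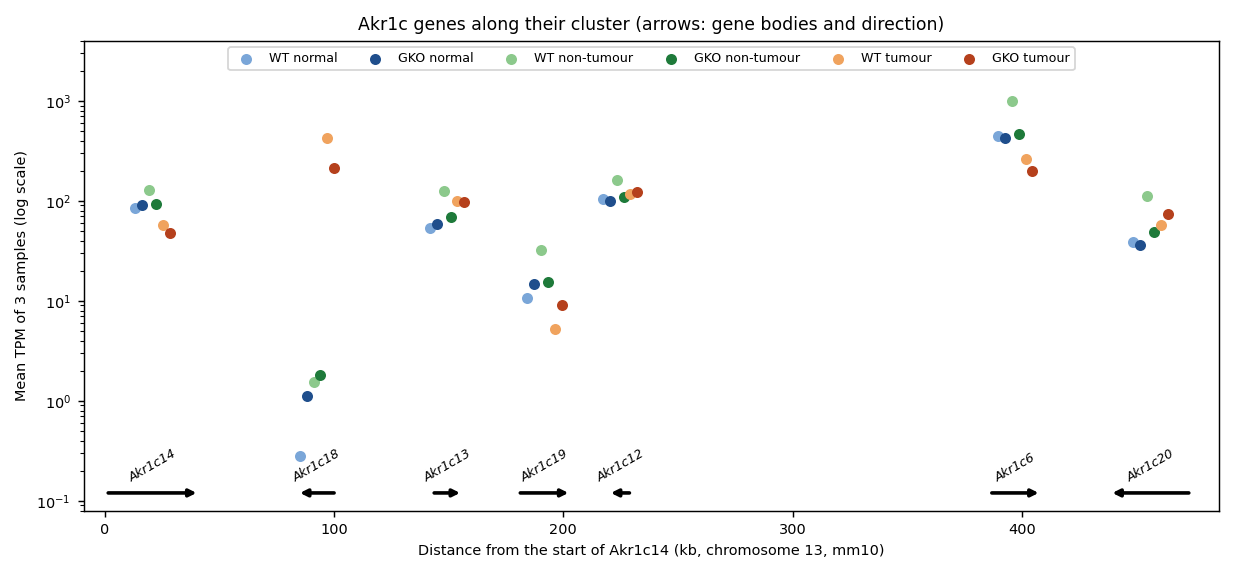
Mean TPM of 3 samples on a log axis for each group, at the position of each Akr1c gene, measured in kb from the start of Akr1c14; arrows show the gene bodies and their direction. The tumour means of Akr1c18 (orange and red) are 428 and 213 TPM and its 4 liver means are 0.283 to 1.83 TPM.

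The tumours were compared with the non-tumour livers of the same genotype to ask which reductases differ in tumour tissue. Differences were fitted with limma on log2(TPM + 1), on which the added 1 shrinks the change of low genes, and p-values were adjusted by Benjamini-Hochberg over all genes tested. In WT mice 3 of the 10 genes rose in tumours and 0 fell, and in GKO mice 2 rose and 0 fell. The background in WT was 4.23% of 14003 genes called, with 2.16% higher and 2.07% lower, and in GKO it was 11.7% of 14092 genes, with 7.75% higher and 3.97% lower. At an unadjusted p under 0.05 there were 6 of the 10 in WT, beside 19.9% of all genes, and 3 of the 10 in GKO, beside 31.7%. Akr1c18 and Akr1b3 were called in both genotypes, and Akr1b8 in WT. The test of the difference between the genotypes' tumour effects, given further on, was not passed by any member. The median log2 fold change of the 10 members was -0.34 in WT and 0.41 in GKO, beside -0.02 and 0.20 over all genes tested. These medians moved with single samples, in WT to -0.62 when non-tumour 1 was left out and to -0.17 when non-tumour 2 was, and in GKO mice to 0.66 and 0.13 for the samples of those numbers.

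Akr1c18 had 2.62, 0.507 and 1.48 TPM in WT non-tumour livers 1 to 3 and 488, 552 and 244 TPM in WT tumours 1 to 3. All WT tumours were far above all WT livers, and the groups did not overlap. On the log2 scale the rise was 7.41 (SE 0.43, adjusted p = 0.000864 from limma). In GKO mice it had 2.86, 2.43 and 0.206 TPM in non-tumour livers and 74.3, 551 and 14.1 TPM in tumours. GKO tumour 2 was at the WT level and GKO tumour 3 was the lowest of the 6 tumours, yet each of the 3 lay above every liver. The log2 fold change was 5.09 (SE 1.18, adjusted p = 0.0366 from limma). The call was lost when any of 4 samples was left out, with an adjusted p of 0.0730 for GKO tumour 1, 0.0580 for GKO non-tumour 1, 0.0863 for GKO non-tumour 2 and 0.131 for GKO non-tumour 3.

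Akr1b3 (aldose reductase) had 1.02, 2.32 and 1.40 TPM in WT non-tumour livers and 8.99, 10.2 and 8.74 TPM in WT tumours. The WT tumours were close to each other and all above the livers. They differed by a log2 fold change of 2.03 (SE 0.24, adjusted p = 0.00710 from limma). GKO non-tumour livers had 1.63, 0.655 and 1.08 TPM, and GKO tumours 20.9, 12.8 and 3.97 TPM. The GKO tumours spread over a wider range, with GKO tumour 1 the highest sample of all, and did not overlap the livers. Their log2 fold change was 2.46 (SE 0.51, adjusted p = 0.0271 from limma), and the adjusted p was 0.0607 when GKO tumour 2 was left out, 0.0853 for GKO non-tumour 2 and 0.0977 for GKO non-tumour 3.

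Akr1b8 (a growth factor-regulated relative of aldose reductase) had 2.92, 0.899 and 2.15 TPM in WT non-tumour livers and 6.78, 10.4 and 8.09 TPM in WT tumours. These groups did not overlap, and tumours were higher by 1.70 on the log2 scale (SE 0.31, adjusted p = 0.0339 from limma). This call too was lost when any of 4 samples was left out, with an adjusted p of 0.0986 for WT tumour 1, 0.143 for WT tumour 2, 0.0596 for WT non-tumour 1 and 0.106 for WT non-tumour 3. In GKO mice the values were 4.17, 2.04 and 3.14 TPM in non-tumour livers and 2.60, 7.83 and 3.25 TPM in tumours, and the groups overlapped, with a log2 fold change of 0.35 (SE 0.37, adjusted p = 0.542 from limma).

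Akr1b7 (vas deferens protein, also known from the adrenal gland, where it reduces an aldehyde made in steroid synthesis) was high in a few samples of several groups. WT tumours had 45.7, 39.2 and 1.06 TPM of it, whereas GKO tumours had 108, 2.67 and 1.14 TPM. Non-tumour livers had 0.475, 27.0 and 0.373 TPM in WT and 0.698, 0 and 0.290 TPM in GKO mice. Normal livers had at most 0.748 TPM. The 4 high samples were thus WT tumours 1 and 2, GKO tumour 1 and WT non-tumour 2, and the other tumours stood at 1.06 to 2.67 TPM. The GKO tumours lay above the GKO non-tumour livers without overlap, whereas the WT groups overlapped. In limma's test the WT tumours differed from WT non-tumour livers by 2.03 (SE 1.57, adjusted p = 0.538) and the GKO tumours from GKO non-tumour livers by 2.87 (SE 1.32, adjusted p = 0.182). The GKO difference was 1.11 without GKO tumour 1, and that of WT was 3.46 without WT non-tumour 2.

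Among genes of the NRF2 list, Nqo1 (a quinone reductase) and Gstm3 (a glutathione transferase), picked after their values were seen, were also highest in these samples. In WT tumours Nqo1 had 291, 284 and 11.7 TPM, and it had 53.9, 8.74 and 1.41 TPM in GKO tumours and 118 TPM in WT non-tumour 2. For Gstm3 the WT tumours had 1394, 990.2 and 15.5 TPM, the GKO tumours 379.5, 17.5 and 13.3 TPM and WT non-tumour 2 had 8423 TPM. The 15 genes of the list together summed to 2338 to 7752 TPM in GKO tumours and 8758 to 13613 TPM in GKO livers. Every GKO tumour lay below every GKO liver in this sum, in which abundant genes weigh most, so it does not stand for each gene. In WT mice the sum was 4397 to 20770 TPM in tumours and 8750 to 30754 TPM in livers. The part of these genes in the levels of Akr1b7 was not tested.

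The 3-alpha- and 17-beta-hydroxysteroid dehydrogenase genes Akr1c14 and Akr1c6 had lower means in tumours of both genotypes, without a call. Akr1c6 had 675, 1543 and 785 TPM in WT non-tumour livers and 225, 169 and 395 TPM in WT tumours, which did not overlap. Its log2 fold change was -1.92 (SE 0.44, adjusted p = 0.0661 from limma), and it was -2.26 with an adjusted p of 0.0275 without WT tumour 3. In GKO mice it had 762, 200 and 438 TPM in non-tumour livers and 271, 181.2 and 142 TPM in tumours, with overlap and a log2 fold change of -1.08 (SE 0.50, adjusted p = 0.181 from limma).

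Akr1c14 (3-alpha-hydroxysteroid dehydrogenase, which reduces dihydrotestosterone and related steroids) had 103, 122 and 158 TPM in WT non-tumour livers and 39.2, 32.9 and 98.3 TPM in WT tumours. WT tumour 3 lay just below the livers and the other WT tumours well below. The log2 fold change was -1.30 (SE 0.44, adjusted p = 0.166 from limma), or -1.78 with an adjusted p of 0.0143 without WT tumour 3. The GKO non-tumour livers had 106, 83.8 and 86.2 TPM and the GKO tumours 63.3, 29.6 and 49.9 TPM, again without overlap. The difference was -0.996 on the log2 scale (SE 0.31, adjusted p = 0.0801 from limma). Scaled to the same median in every sample it was -1.23 with an adjusted p of 0.0387, past the threshold.

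Akr1c19 had 12.4, 55.8 and 29.4 TPM in WT non-tumour livers and 7.97, 6.28 and 1.56 TPM in WT tumours, without overlap and with a log2 fold change of -2.37 (SE 0.65, adjusted p = 0.108 from limma). Akr1c20 had 84.8, 172 and 78.5 TPM against 55.6, 73.9 and 44.3 TPM in the same groups, with a change of -0.87 (SE 0.37, adjusted p = 0.251 from limma). WT non-tumour 2 was the highest of the livers for both genes. In GKO mice both overlapped between tumour and non-tumour samples, with changes of -1.05 and 0.47.

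Akr1c12 and Akr1c13 showed the smallest differences between WT tumours and WT non-tumour livers. In WT tumours Akr1c12 had 116, 117 and 118 TPM and Akr1c13 had 94.8, 99.2 and 103 TPM. The WT non-tumour livers had 116, 185 and 184 TPM of Akr1c12 and 73.0, 162 and 138 TPM of Akr1c13, so that tumours lay within or next to the range of the livers. Their log2 fold changes were -0.43 (SE 0.26) and -0.25 (SE 0.33), with adjusted p-values of 0.410 and 0.733 from limma. In GKO mice they were 0.25 (SE 0.38) and 0.71 (SE 0.49). Akr1c12 was the higher of the pair in all 18 samples, 1.13 to 2.34 times Akr1c13.

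Over all members, the groups did not overlap for 7 of the 10 in WT (3 higher and 4 lower in tumours) and for 4 of the 10 in GKO (3 higher and 1 lower). Of all genes tested, 24.8% did not overlap in the WT comparison and 38.3% in the GKO comparison, so the share in GKO was close to the background.

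**Figure D3:**
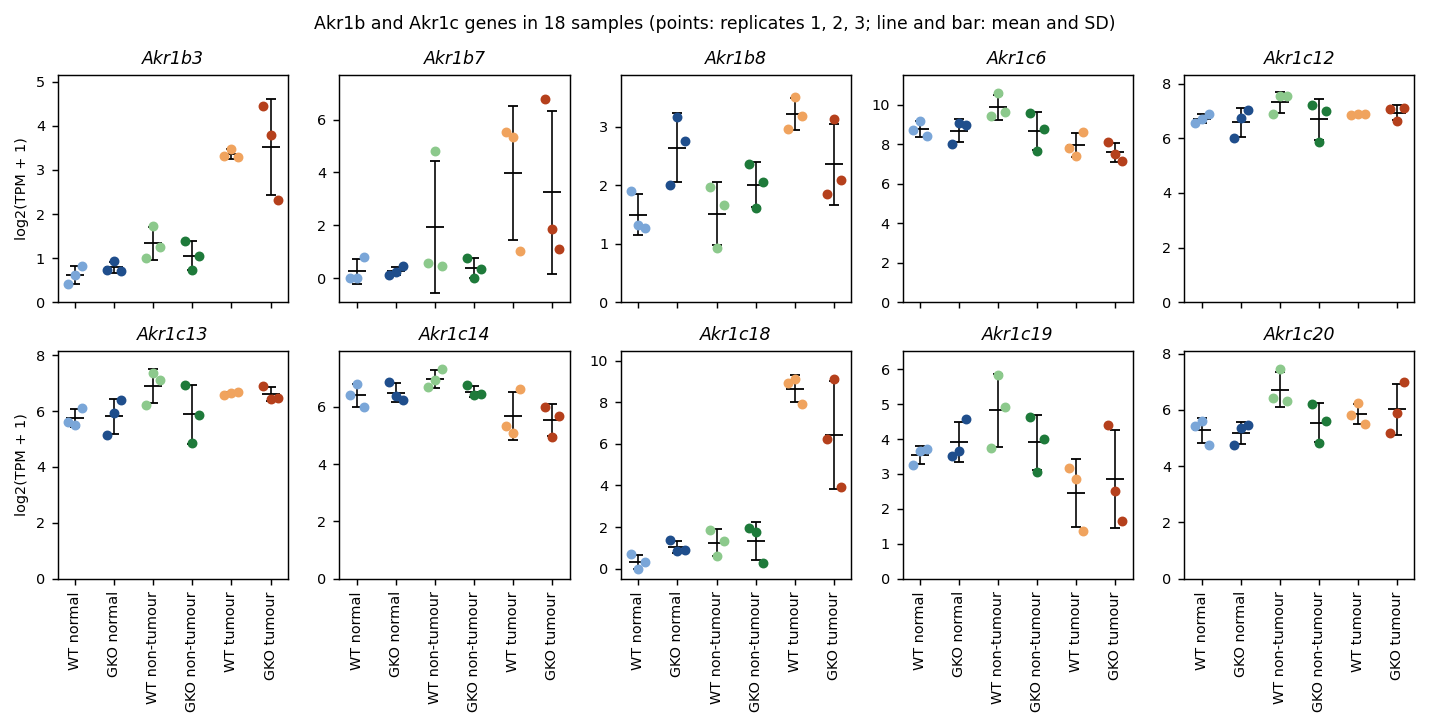
Each panel plots log2(TPM + 1) of one gene, with a point per sample, in the order of replicates 1 to 3 from left to right, and a line and bar for the mean and SD of the 3 samples of a group; zero on the axis is 0 TPM. Akr1c18 and Akr1b3 are higher in the tumours than in all livers, Akr1b7 is high in only some samples of 3 groups, and Akr1c12 differs little between groups.

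**Figure D4:**
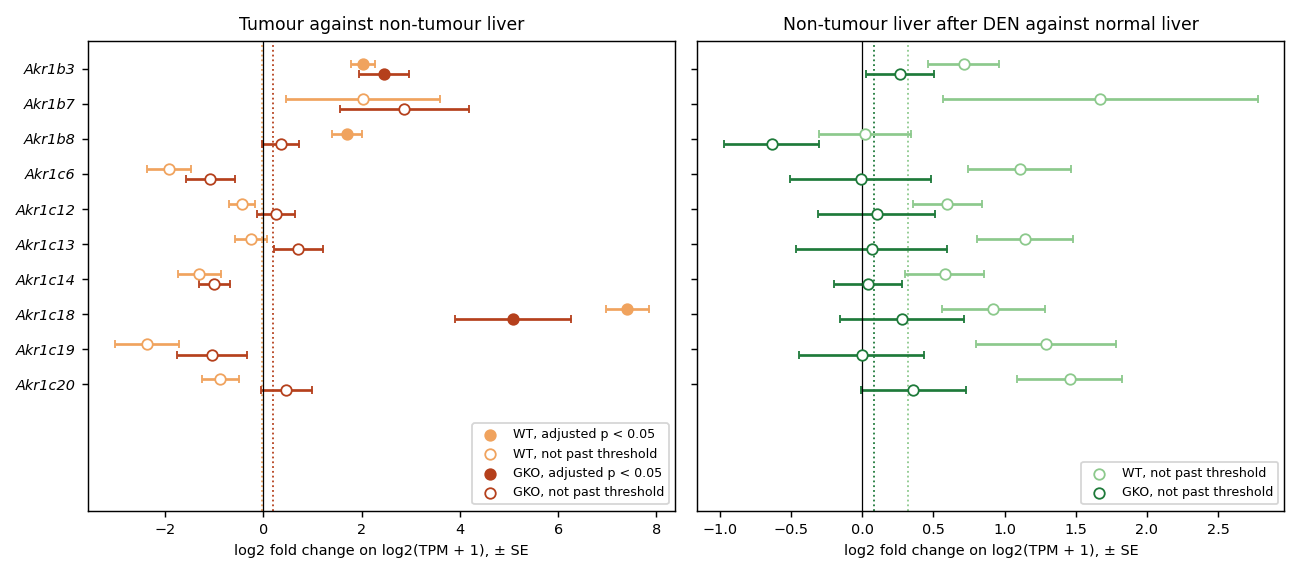
Log2 fold changes of the 10 genes on log2(TPM + 1) with SE, for tumour against non-tumour liver (left) and for non-tumour against normal liver (right), in WT and GKO mice. Filled points passed an adjusted p of 0.05, dotted lines are the median of all genes tested, and Akr1b7 is missing on the right for GKO because it was below the filter; Akr1c18 lies at 7.41 and 5.09 on the left, and no gene passed on the right.

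Markers of steroid-making adrenal cells were examined because Akr1b7 and Akr1c18 are also known from steroidogenic tissue. The 9 markers summed to 61.1 to 134 TPM in WT tumours, 6.31 to 74.9 TPM in GKO tumours and 2.56 to 21.3 TPM in livers. Most of this was Cyp17a1 (steroid 17-alpha-hydroxylase), which rose in WT tumours against WT non-tumour livers (log2 fold change 3.18, SE 0.58, adjusted p = 0.0334 from limma). In the same comparison Cyp11a1 differed by 1.80 without overlap (SE 0.39, adjusted p = 0.0546 from limma). Cyp21a1 differed by 2.20 and Star by 0.53, both with overlap. Between GKO and WT tumours Cyp11a1 differed by -1.79 and Cyp21a1 by -2.68, without overlap (adjusted p = 0.348 and 0.525 from limma). In WT tumours Cyp11b1, Cyp11b2, Nr5a1 and Mc2r were at or under 3 reads, and the same 4 and Cyp11a1 and Cyp21a1 in GKO tumours. GKO tumour 2, with 551 TPM of Akr1c18, had a sum of 19.6 TPM of these markers. Of the other marker lists, pancreatic acinar cells summed to 23.0 to 94.0 TPM in tumours and 5.52 to 27.6 TPM in livers. Cpa1, Pnlip, Amy2a5 and Ctrb1 of this list were at or under 3 reads in WT tumours, and they and Prss2 in GKO tumours. Cela1, the only acinar marker tested in WT tumours against WT non-tumour livers, rose (log2 fold change 2.12, SE 0.32, adjusted p = 0.0181 from limma). Macrophages summed to 89.97 to 284 TPM in tumours and 92.1 to 789 TPM in livers. Endothelial cells summed to 61.0 to 97.1 TPM in tumours and 28.6 to 78.3 TPM in livers, T and B cells to at most 26.1 TPM and adipocytes to at most 108 TPM in any sample. In GKO tumours against GKO non-tumour livers 4 of 10 fibroblast and stellate cell markers rose and 1 fell, beside 7.75% and 3.97% of all genes. The part of these cell types in the members' differences was not tested.

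GKO and WT tumours were compared to ask whether loss of the cluster changed the reductases. Of the 10 genes, 0 passed at an adjusted p under 0.05 in limma, and 0 had an unadjusted p under 0.05, against a background of 0.0215% of 13964 genes at the adjusted threshold and 8.87% at the unadjusted one. By voom on the recovered reads 0 passed the adjusted threshold and 1 the unadjusted one. None of the 10 was free of overlap between WT and GKO tumours, against 14.7% of all genes. The largest difference was that of Akr1c18, which was lower in GKO tumours on average by a log2 fold change of -2.24 (SE 1.18, adjusted p = 0.626 from limma), with GKO tumours 1 and 3 below all WT tumours and GKO tumour 2 at 551 TPM beside WT tumour 2 at 552 TPM. When GKO tumour 2 was left out the difference was -3.58, with an adjusted p of 0.243 from limma, and when GKO tumour 3 was left out it was -0.99, with an adjusted p of 0.919. Akr1b8 differed by -0.86 (SE 0.37, adjusted p = 0.560). For Akr1c14, the member with the matching letters of the seed, the difference was -0.14 (SE 0.47, adjusted p = 0.943). Akr1c12 and Akr1c13 differed by 0.06 (SE 0.21) and -0.04 (SE 0.21).

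In non-tumour livers, 0 of the 10 passed between the genotypes and 1 had an unadjusted p under 0.05, while the background was 0% of 13768 genes at the adjusted threshold and 5.8% at the unadjusted one. Voom gave the same counts of 0 and 1. Of the 10, 8 had a lower mean log2 level in GKO mice, with a median of -0.78 beside -0.15 over all genes. The median of the members was -0.44 without GKO non-tumour 2 and, over the 9 then tested, -0.47 without WT non-tumour 2. Akr1c20 had 84.8, 172 and 78.5 TPM in WT and 72.7, 27.6 and 47.9 TPM in GKO livers, which did not overlap. Its log2 fold change was -1.17 (SE 0.44, adjusted p = 0.643 from limma). The sample with the highest value of Akr1c6, Akr1c13, Akr1c19 and Akr1c20 was WT non-tumour 2, and that with the lowest was GKO non-tumour 2, whose summed Akr1c TPM of 405.5 was the lowest of all 18 samples.

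In normal livers, 9 of the 10 genes could be tested, because Akr1b7 was below the filter, and 0 passed, with a background of 0% of 13099 genes. At an unadjusted p under 0.05 there were 2 of the 9 in limma and 2 by voom, against 3.96% of all genes. Akr1b8 had 2.75, 1.501 and 1.41 TPM in WT and 3.02, 7.95 and 5.80 TPM in GKO normal livers, each GKO liver being above each WT liver, with a difference of 1.15 (SE 0.33, adjusted p = 0.999 from limma). Akr1c18 had 0.610, 0 and 0.238 TPM in WT and 1.62, 0.822 and 0.876 TPM in GKO normal livers. These are 0 to 5 reads in WT and 8 to 16 reads in GKO livers, without overlap, and the difference was 0.72 (SE 0.27, adjusted p = 0.999 from limma). Groups did not overlap for 7.95% of all genes. Markers of fibroblasts and stellate cells moved in the same direction, with a sum of 40.3 to 43.1 TPM in WT and 64.6 to 88.9 TPM in GKO normal livers, and those of cholangiocytes with 33.5 to 51.6 and 83.7 to 93.9 TPM. Endothelial markers did so too, with 28.6 to 33.3 TPM in WT and 47.7 to 58.9 TPM in GKO normal livers. The sums of the other marker lists overlapped. The part of these cell types in the result was not tested.

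The difference between the genotype effects in tumours and in non-tumour livers was tested directly, and 0 of the 10 members passed in limma, with a background of 0.0142% of 14106 genes. At an unadjusted p under 0.05 there was 1 of the 10, as by voom, against 10.5% of all genes. That 1 was Akr1b8, at -1.35 (SE 0.52, adjusted p = 0.468). For Akr1c18 the difference of effects was -2.32 (SE 1.43, adjusted p = 0.528), or -3.66 without GKO tumour 2 and -1.07 without GKO tumour 3. Since this test equals that of the tumour effect in GKO against WT mice, the calls of Akr1b8 in WT alone and of the larger rise of Akr1c18 in WT are not shown to depend on genotype.

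Non-tumour livers after DEN were compared with untreated normal livers to see what differs in tissue outside the tumours. DEN treatment and the presence of tumours cannot be told apart in this design. In WT mice 0 of the 10 passed in limma, with a background of 0.00744% of 13440 genes, and 7 had an unadjusted p under 0.05 (5 by voom), beside 24.4% of all genes. All 10 genes were higher on average, or 9 of 10 after scaling to a common median, with a median log2 fold change of 1.01 beside 0.32 over all genes. Scaling the samples to a common median moved the median over all genes to -0.05 and that of the members to 0.64, with 2 genes at an unadjusted p under 0.05. The groups did not overlap for 6 of the 10, against 33.9% of all genes.

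Akr1c20 had 42.2, 48.1 and 25.9 TPM in WT normal livers and 84.8, 172 and 78.5 TPM in WT non-tumour livers, and the lowest non-tumour value was above the highest normal one. Its difference was 1.46 (SE 0.37, adjusted p = 0.122 from limma). Akr1c6 had 413, 579 and 341 TPM in WT normal livers, below all 3 of the non-tumour values given above, and its change was 1.11 (SE 0.36, adjusted p = 0.156 from limma). Akr1c13 had 48.4, 44.8 and 68.1 TPM in WT normal livers and differed by 1.14 (SE 0.34, adjusted p = 0.138 from limma). Without WT non-tumour 2 the median of the members tested was 0.75, beside 0.28 over all genes, with 9 genes tested.

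In GKO mice the same comparison gave 0 of 9 at the adjusted threshold and 0 of 9 at the unadjusted one, in limma and by voom, with a background of 0% and 5.2% of 13530 genes. The median log2 fold change was 0.07 beside 0.08 over all genes, and none of the 9 was free of overlap, against 8.73% of all genes. Akr1c6 had 259, 532 and 496 TPM in GKO normal livers and 762, 200 and 438 TPM in GKO non-tumour livers, a difference of -0.01 (SE 0.49). Akr1c20 had 25.8, 39.8 and 43.4 TPM and 72.7, 27.6 and 47.9 TPM in these groups, a difference of 0.36 (SE 0.37). Whether the change after DEN differed between WT and GKO mice was not tested.

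The order of the group means differed between members. For Akr1b3 it ran from GKO tumours (12.56 TPM) and WT tumours (9.29 TPM), which overlapped, to WT non-tumour livers (1.58 TPM), which did not overlap the WT tumours, and then through overlapping neighbours to WT normal livers (0.549 TPM). Akr1c18 was highest in WT tumours, overlapping the GKO tumours, and its lower neighbour after the GKO tumours (213 TPM) was the group of GKO non-tumour livers (1.83 TPM), without overlap. Akr1c6, Akr1c14 and Akr1c19 had their highest mean in WT non-tumour livers and the 2 tumour groups at the bottom, and for Akr1c6, with 1001 TPM in WT non-tumour livers and 198 TPM in GKO tumours, all neighbouring groups overlapped. Akr1c12, Akr1c13 and Akr1c20 were also highest in WT non-tumour livers but had no pair of neighbouring groups without overlap. Akr1b8 was highest in WT tumours (8.42 TPM), followed by GKO normal livers (5.59 TPM), and Akr1b7 was highest in GKO tumours (37.4 TPM), again with overlap between all neighbours. At the low end of Akr1c18, GKO normal livers (1.11 TPM) lay above WT normal livers (0.283 TPM) without overlap.

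The genes most like each member over the 18 samples were found by Pearson's r of log2(TPM + 1) among the 11897 genes whose mean reached 1 TPM. These r values are descriptions over samples that share 6 groups and have no p. For Akr1c18 they were Il1rn (0.974), Neurl1a (0.973) and Sstr2 (0.971). For Akr1b3 they were Coq8b (0.970), Ctps2 (0.968) and Ahsg (0.966), and for Akr1b7 Gm3571 (0.974), Spcs3 (0.950) and Tmed3 (0.937). For Akr1c6 they were Alas2 (0.939), Letm1 (0.881) and Ugt2b36 (0.868), for Akr1c14 Ghr (0.898), Nfyb (0.897) and Eva1a (0.865), and for Akr1c12 Mrpl24 (0.929), Rnf5 (0.920) and Dgcr6 (0.901). For Akr1c13 they were Dpy30 (0.934), Pgk1 (0.932) and Vti1b (0.932), for Akr1c19 Lcp1 (0.931), Adh1 (0.896) and Ldhd (0.862), and for Akr1c20 Parp9 (0.926), Pnp (0.891) and Tmem230 (0.885). Akr1b8 was the member with the least similar partners, which were Pglyrp1 (0.794), Ccdc125 (0.773) and Gm44427 (0.773). Between members the highest r was that of Akr1b3 with Akr1c18 (0.912), followed by Akr1c12 with Akr1c13 (0.897), a pair whose reads are partly shared.

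The remaining aldo-keto reductase genes gave another background. Of 10 such genes 5 could be tested in each of the comparisons, and 0 passed in limma. Akr1a1 (aldehyde reductase) had 279 ± 61.5 TPM in WT tumours and 475 ± 139 TPM in WT non-tumour livers, and Akr7a5 had 243 ± 56.0 and 305 ± 47.2 TPM (SD, n = 3 each). Akr1b10, which lies between Akr1b8 and Akr1b7 on chromosome 6, had at most 2.36 TPM in any sample. Akr1cl had at most 1 read in any sample and Akr1c21 at most 4.

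Genes of the pathways around the reductases were counted in lists. In tumours against non-tumour livers of the same genotype, 4.23% of all genes were called in WT and 11.7% in GKO mice. Of 6 polyol and fructose genes, 1 fell in WT tumours against WT non-tumour livers and 0 rose, and the 1 was Sord (sorbitol dehydrogenase, which acts on the product of aldose reductase), with a log2 fold change of -1.92 (SE 0.39, adjusted p = 0.0463 from limma). In GKO mice 0 of the 6 passed, and Sord differed by -0.45 with overlap. The difference between the genotypes' effects had an adjusted p of 0.469 from limma for Sord. Of 12 prostaglandin genes, 7 were tested in each genotype: Hpgd, which inactivates prostaglandins, fell in WT tumours (-3.37, SE 0.41, adjusted p = 0.00799 from limma), and Ptgr1, which reduces prostaglandin breakdown products, rose in GKO tumours (2.43, SE 0.20, adjusted p = 0.00406 from limma). In the other genotype each differed in the same direction without overlap, Hpgd by -1.78 in GKO (adjusted p = 0.131 from limma) and Ptgr1 by 2.05 in WT mice (adjusted p = 0.0977 from limma), and the difference between the genotypes' effects had an adjusted p of 0.506 for Hpgd and 0.809 for Ptgr1.

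Of 13 steroid-converting genes, 12 were tested. In WT tumours 1 fell and 0 rose against WT non-tumour livers, and that gene was Hsd3b2, a 3-beta-hydroxysteroid dehydrogenase (-2.87, adjusted p = 0.00149 from limma). In GKO tumours 4 fell and 2 rose: Hsd3b5 (-3.89), Cyp7b1 (-3.88), which 7-alpha-hydroxylates oxysterols and steroids, Srd5a1 (-2.33), which makes 5-alpha-reduced androgens, and Hsd17b13 (2.56) were the 4 with the largest changes. The other gene that rose was Srd5a2, another 5-alpha-reductase gene, by 0.95 without overlap (adjusted p = 0.0269 from limma). In WT tumours Srd5a2 differed by 0.84, with overlap (adjusted p = 0.213 from limma). Over all genes, 3.97% fell and 7.75% rose in GKO mice. Hsd3b2 also fell in GKO tumours (-1.60, adjusted p = 0.0147 from limma). In WT tumours Srd5a1 differed by -3.14 without overlap (adjusted p = 0.0561 from limma). Hsd3b5, Cyp7b1 and Hsd17b13 differed there by -2.19, -1.09 and 0.40, with overlap. The difference between the genotypes' effects had an adjusted p of 0.417 for Hsd3b2 and 0.734 for Srd5a1 from limma. The median of the list was -0.81 in WT and -0.31 in GKO mice.

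Of the 17 aldehyde and carbonyl enzymes, 16 were tested, and 1 rose and 3 fell in WT tumours while 1 rose and 1 fell in GKO tumours. Of all genes, 4.23% were called in WT and 11.7% in GKO mice, so the GKO count was close to the background. Aldh1b1, a mitochondrial aldehyde dehydrogenase, rose in both (2.42 in WT, adjusted p = 0.00317, and 4.52 in GKO, adjusted p = 0.00583 from limma), and Adh4 fell in both (-3.43 and -1.40). Aldh1a1 (-3.68), which makes retinoic acid, and Aldh3a2 (-3.20), which clears fatty aldehydes, fell in WT tumours. Of 15 NRF2 target genes, 0 passed in WT tumours against WT non-tumour livers, and of the 14 tested in GKO mice Gstp1 (-2.05) and Gclc (-1.56), which limits glutathione synthesis, fell in GKO tumours. This GKO count too was close to the share of all genes called. A call in 1 genotype alone does not show that the genotypes differ, for Gstp1 and Gclc as for Aldh1a1 and Aldh3a2. Between GKO and WT tumours 0 of the 15 passed, with 3 at an unadjusted p under 0.05, beside 0.0215% and 8.87% of all genes. Of the 15, 13 were lower in GKO tumours, with a median of -1.35 beside 0.09 over all genes.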

How the data were processed

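Total RNA of 18 mouse liver and liver tumour samples was sequenced after standard Illumina library preparation. The authors deposited TPM values per gene, and their processing notes name STAR 2.7.3a, featureCounts 2.0.0 and the mm10 genome. How TPM was computed, and with which annotation, is not given in the sources used here. Multiplying TPM by exonic length in GENCODE mouse release 21, in which 54809 genes were found, gave whole reads within 0.02 for 97.95% to 98.67% of the low values (up to 30 reads) of a sample, at a median depth of 16973801 reads. In the table, 101 symbols occurred repeatedly, and every column had a sample.

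Groups came from the labels. Using limma 3.58.1 in R 4.3.3 (lmFit, eBayes with trend), log2(TPM + 1) was compared for genes averaging 0.5 TPM or more in the compared groups. A call needed a p below 0.05 after Benjamini-Hochberg adjustment. The procedure was tested on simulated data. There were 8 comparisons. Genes named are the 10 members, the up to 4 called genes of each pathway list with the largest change, the 3 genes most like each member by r, markers of cell types, and genes said to be picked after their values were seen. Srd5a2 was added as the remaining called gene of the steroid-converting list. The 6 pathway and 9 marker lists and the members were chosen with earlier results of these data known. Alternatives were a pseudocount of 0.1, no filter, a filter of 5 TPM, quantile normalization, median centring, one fit of all samples, no trend, a replicate block, leaving out each replicate, WT tumours 1 and 2 averaged, and, chosen after seeing the data, voom on the recovered reads. Sequences were read from RefSeq tables (GRCm38.p6) and from GENCODE on mm10. Python 3.11.15 with pandas 2.3.3, numpy 2.4.6, Biopython 1.88 and matplotlib 3.10.9 was used for the rest.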

Additional observations from a re-analysis of the deposited data

How the results depend on the processing

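The count of members called in WT tumours against WT non-tumour livers was 3. With all 18 samples in one fit it was 6, as Akr1c6, Akr1c14 and Akr1c19 were then called lower, and leaving out each replicate gave 2 to 5, the highest without WT tumour 3. Calls over all genes moved too, from 592 to 1649 in the one fit and to 1363 without WT tumour 3. In GKO tumours against GKO non-tumour livers the count was 2, and it was 0 with no filter on low values, where more genes were tested, and 0 to 2 with each replicate left out. It was 0 without GKO non-tumour 2 or 3, and 1 without GKO tumour 1, GKO tumour 2 or GKO non-tumour 1. With median centring or quantile normalization it was 3, as Akr1c14 was then called lower. Calls over all genes moved from 1652 to 1767 and 1841 in these 2 settings. The other 6 comparisons had 0 members called in limma under every alternative run. The 20 member-and-comparison results with an unadjusted p under 0.05 in the main limma fit were followed through 308 alternatives. Of these alternatives, 280 kept direction and side of the threshold, 18 lost the call, 10 gained one and 0 reversed. Because the 20 were picked by their p and most were not called, these counts do not describe all results. Outside them directions did reverse, as for Akr1b3 between GKO and WT tumours, with -0.31 to 0.76 over its alternatives. In WT mice, Akr1c18 and Akr1b3 were called in all 16 alternatives (highest adjusted p 0.00882 and 0.0456) and Akr1b8 in 8, with an adjusted p of 0.0910 without a filter, 0.111 with WT tumours 1 and 2 averaged and 0.0667 by voom. In GKO mice, Akr1b3 was called in 11 of 15 and Akr1c18 in 9 of 15, with 0.105 by voom. The replicate numbers were not taken as pairs, since the labels do not tie them to mice. Same-numbered samples had correlations between -0.299 and 0.245, and no comparison had all of its pairs over 0.1. For tumours against non-tumour livers they were -0.009 to 0.245 in WT and 0.041 to 0.119 in GKO mice. These values cannot tell whether mice were shared, and the study states that tumours and the tissue around them were collected. With a replicate block the counts were 2 in WT, as Akr1b8 had an adjusted p of 0.0772, 2 in GKO and 0 in the other 6. Low depth limits Akr1c18 in livers, where it had 0 to 27 reads, and Akr1b7 in livers other than WT non-tumour 2.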
